A study of Homo sapiens with 6 samples.

Results

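Aminoacyl-tRNA synthetases are the enzymes that attach each amino acid to its transfer RNA. Human cells keep separate sets for the cytosol and for mitochondria, and both are encoded in the nucleus. The genes described here are 20 cytosolic synthetase genes, 16 mitochondrial synthetase genes, whose symbols end in 2, and AIMP1, a scaffold protein of the cytosolic enzymes. They were chosen by symbol, 37 of the 58735 genes listed for each library, and all 37 were found. The libraries came from MUM2B cells, which the labels give as a melanoma line. One group stably overexpressed LACTB, a mitochondrial protein related to bacterial penicillin-binding proteins and beta-lactamases, and the other carried the empty vector, with 3 RNA-seq libraries in each and no further treatment. The labels do not say whether a group came from more than 1 stable line or whether replicates were separate cultures, so every p-value rests on the spread among 6 libraries, and that spread may be technical. Values are FPKM, fragments scaled to exon length and library size, as the authors deposited them.

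A few facts of the whole series bear on these values. Each library held 16978799 to 18395631 reads in genes. The overexpressed gene checked the labels: LACTB had 3.97 ± 0.675 FPKM in empty vector cells against 168.2 ± 6.28 FPKM in the others (SD, n = 3 each). Of 14 melanocyte markers, 13 lay under 1 FPKM and 3 were at 0 in every library, so most defining markers of the labelled lineage were absent or near 0. The fibroblast and immune markers searched, 7 and 5 genes, all lay under 1 FPKM. Epithelial KRT8 and KRT18 and endothelial CDH5 lay above 1 FPKM. The other 4 epithelial and 5 endothelial markers lay under it, so the sums of these lists over the libraries rest mainly on the named genes. Both sums differed between the groups. The 6 epithelial markers summed to 340 to 351.5 FPKM with empty vector and 304.1 to 311.1 with LACTB, and the 6 endothelial markers to 47.7 to 52.5 and 14.1 to 14.8. Their part in the synthetase values was not tested. Empty vector replicate 3 stood apart from the other libraries of its group. Its mitochondrially encoded RNAs took 3.61% of reads against 5.54% and 5.62% there, and 4.65% to 5.04% in the LACTB libraries. A gene rose or fell here when limma's Benjamini-Hochberg adjusted p on log2(FPKM + 1) was under 0.05. By that rule 14.8% of 11875 tested genes rose in LACTB cells and 17.2% fell.

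Synthetases fall into classes I and II, which differ in the fold of the catalytic domain. In the cytosol, 8 of the enzymes gather with AIMP1 and further scaffolds in the multi-synthetase complex. The genes GARS and KARS each make both a cytosolic and a mitochondrial enzyme, while EPRS joins the enzymes for glutamate and proline in a single chain. Mitochondria charge their glutamine tRNA indirectly, through EARS2 and an amidotransferase. When amino acids run short, uncharged tRNA activates the kinase GCN2, which leads to translation of the transcription factor ATF4. Many cytosolic synthetase genes are known ATF4 targets.

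Cytosolic synthetase genes were higher in LACTB cells in most cases, and mitochondrial ones mostly showed no difference that passed the test. Of the 20 cytosolic genes, 12 rose, 1 fell and 7 passed no threshold (limma), against a background of 14.8% rising and 17.2% falling among all tested genes. Among the 3493 tested genes within the FPKM range of the cytosolic set, 14.8% rose and 25.2% fell. The median log2 fold change of the 20 cytosolic synthetase genes was 0.45, against -0.010 over all tested genes. Of 15 mitochondrial genes that could be tested, 1 rose and 2 fell, with a median of 0.037. Of all 36 tested synthetase and scaffold genes 16 were called in either direction, where 32% of tested genes were. Summed over the 20 cytosolic genes, the level went from 824.4 ± 5.15 to 1144 ± 8.10 FPKM, while the 16 mitochondrial genes summed to 132.2 ± 4.83 and 132.7 ± 0.904 FPKM (SD, n = 3 each). In bulk RNA, more RNA per cell and more cells with the RNA cannot be told apart.

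**Figure D1:**
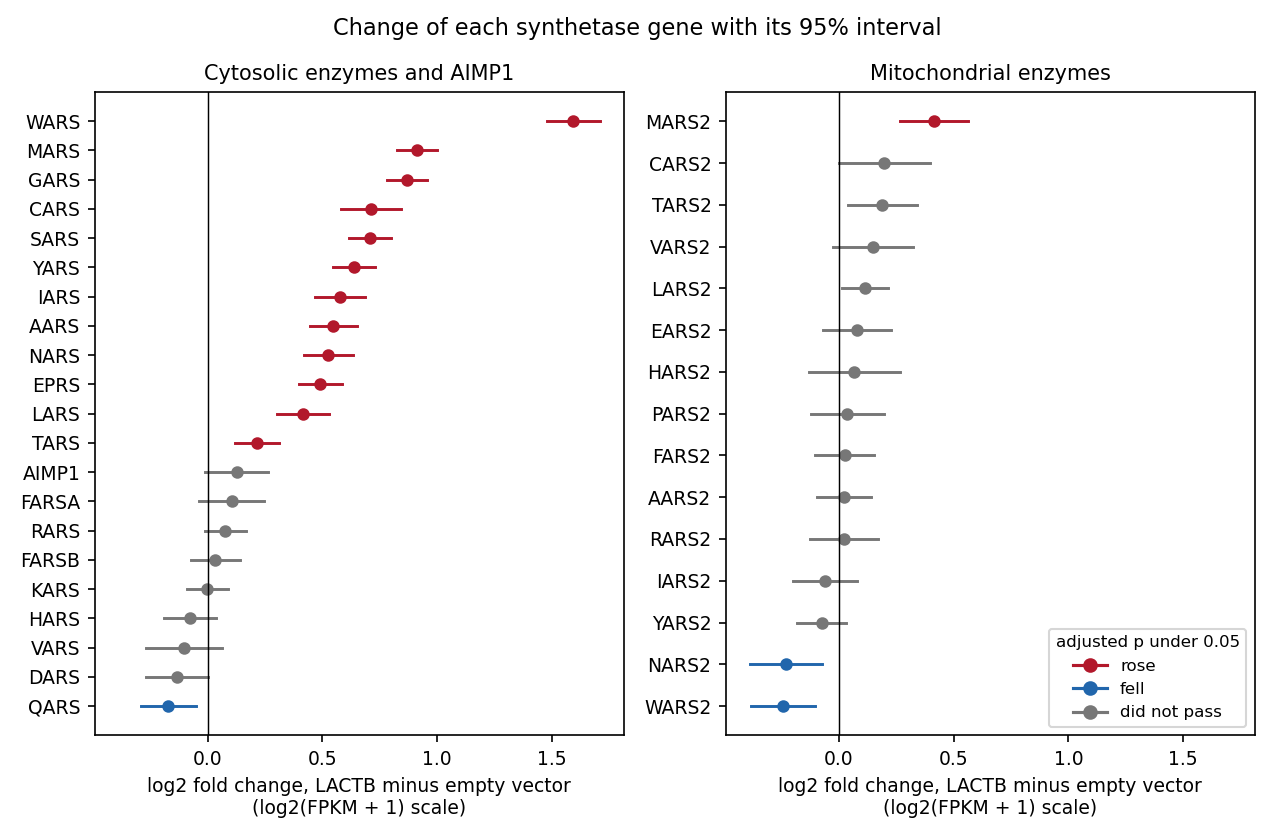
Log2 fold change of each tested gene, LACTB minus empty vector on the log2(FPKM + 1) scale, as points with 95% limma intervals as lines. Red genes rose and blue genes fell at an adjusted p under 0.05; 12 of 20 cytosolic genes are red, led by WARS at 1.59, and 1 of 15 mitochondrial genes is, MARS2 at 0.41.

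WARS, the tryptophan enzyme, which is also known as an interferon-inducible gene, differed most. It lay at 18.1, 17.3 and 16.1 FPKM in the empty vector libraries and at 53.8, 54.2 and 53.4 FPKM in the LACTB libraries. The groups were far apart and the LACTB libraries nearly equal, with a 3.13-fold ratio of means. On the log2 scale it rose by 1.59 (SE 0.048; adjusted p by limma 4.04e-06), which took position 30 from the top among the 11875 tested genes. WARS is a gene of chromosome 14 (GRCh38, 100333788 to 100376805, minus strand), and 10.6% of its exon bases overlap exons of other genes, WDR25 among them. WDR25, on the opposite strand, was also higher with LACTB, at 84 to 116 reads with empty vector and 144 to 171 with LACTB. WARS had 1848 to 2025 reads with empty vector and 5935 to 6197 with LACTB. Whether some reads of WDR25 were counted for WARS was not tested.

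GARS, the glycine enzyme of both compartments, had the highest level of all 37 genes. It lay at 112.1, 114.9 and 112.8 FPKM with empty vector and at 209.1, 209.3 and 204.0 FPKM with LACTB, a 1.83-fold ratio (log2 fold change 0.87, SE 0.037; limma, adjusted p = 1.23e-05). KARS, the lysine enzyme that likewise serves both compartments, lay at 61.0, 62.6 and 63.5 FPKM with empty vector and at 63.5, 60.9 and 62.6 FPKM with LACTB. The libraries of the groups were interleaved for KARS, with a log2 fold change of -0.0010 and a 95% interval of -0.090 to 0.088. The interval of GARS ran from 0.78 to 0.95, so those of the dual-compartment genes did not meet.

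**Figure D2:**
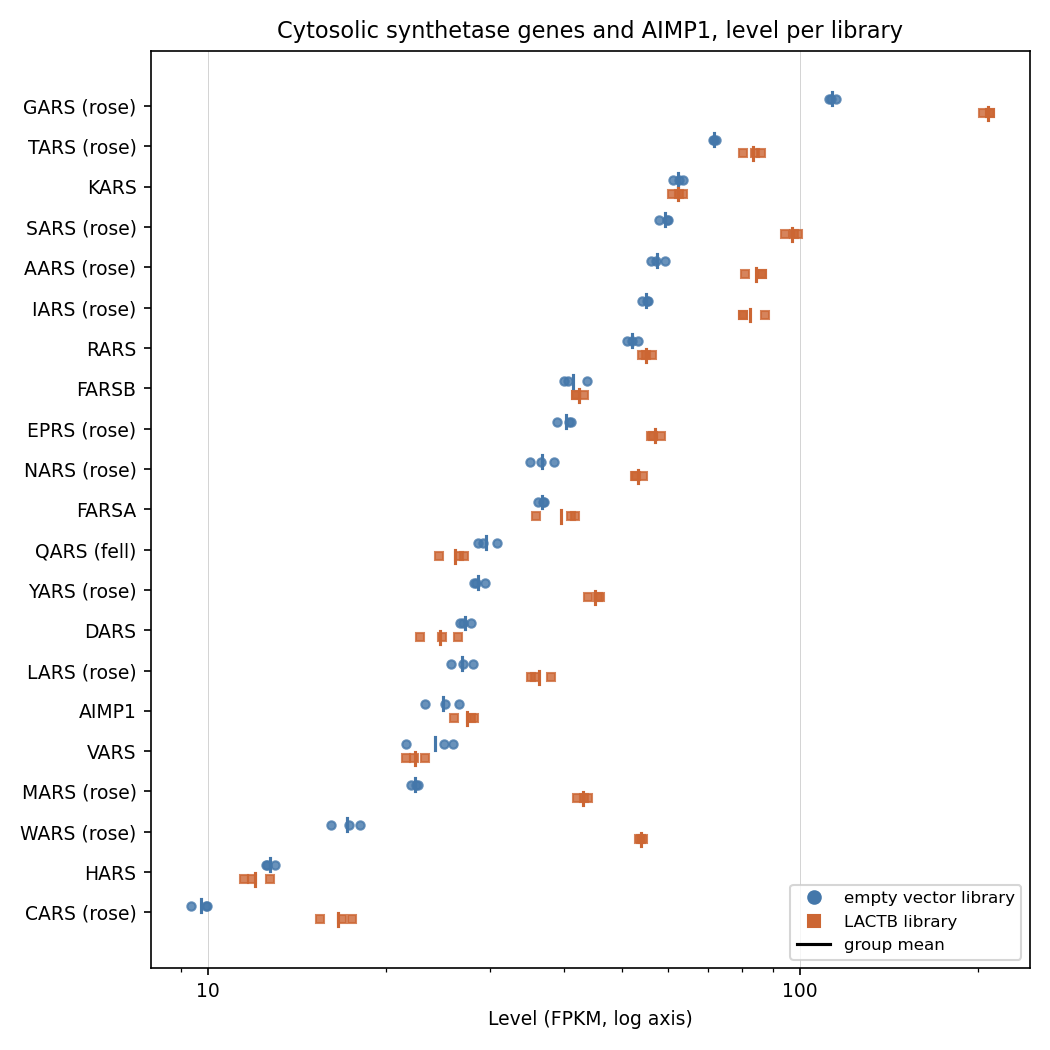
Level of each cytosolic synthetase gene and AIMP1 in FPKM on a log axis, ordered by the empty vector mean. Circles are empty vector libraries, squares LACTB libraries and short lines group means; for the 12 genes marked as risen all squares lie right of all circles, as for WARS, GARS and MARS.

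Apart from WARS and GARS, the enzymes that work outside the multi-synthetase complex divided between risen and level genes. SARS, for serine, lay at 57.9, 59.9 and 59.7 FPKM with empty vector and at 99.3, 97.7 and 94.4 FPKM with LACTB. YARS, for tyrosine, went from 29.4, 28.1 and 28.4 to 43.8, 45.6 and 45.9 FPKM. Both were more than 1.5 times higher, with ratios of 1.64 and 1.57 and no overlap of the groups. CARS, the cysteine enzyme and the lowest cytosolic gene with empty vector, lay at 9.92, 9.37 and 9.96 FPKM there and at 15.5, 16.8 and 17.5 FPKM with LACTB. AARS, for alanine, went from 57.2, 56.0 and 59.1 to 80.8, 86.2 and 86.2 FPKM. Every LACTB library lay above every empty vector library for these genes as well, at ratios of 1.70 for CARS and 1.47 for AARS. NARS, for asparagine, lay at 36.6, 35.0 and 38.4 FPKM with empty vector and at 54.2, 52.9 and 52.6 FPKM with LACTB. TARS, for threonine, showed the smallest rise among the called genes, from 71.5, 71.3 and 72.2 to 85.9, 83.8 and 80.1 FPKM, a ratio of 1.163 (log2 fold change 0.21, SE 0.040; limma, adjusted p = 0.00745). Limma's adjusted p for SARS, YARS, CARS, AARS and NARS lay between 3.99e-05 and 0.000261.

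The remaining cytosolic genes outside the complex passed no threshold. FARSA, a subunit of the phenylalanine enzyme, went from 36.6 ± 0.397 to 39.5 ± 3.16 FPKM, and FARSB, its partner subunit, from 41.4 ± 1.99 to 42.3 ± 0.743 FPKM (SD, n = 3 each). Their log2 fold changes were 0.10 (95% interval -0.038 to 0.25) and 0.032 (-0.075 to 0.14). HARS, for histidine, stood at 12.7 ± 0.245 and 12.0 ± 0.637 FPKM, and VARS, for valine, at 24.2 ± 2.30 and 22.4 ± 0.835 FPKM. The groups overlapped for all 4 genes. Empty vector replicate 3 held the lowest VARS value of its group, 21.6 FPKM, and without it VARS passed the threshold downward (log2 fold change -0.18; limma, adjusted p = 0.0342). Without LACTB replicate 1, FARSA passed upward (0.17) and DARS, of the complex, downward (-0.18), at limma adjusted p of 0.0266 and 0.0497.

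Within the multi-synthetase complex the enzymes did not move as a unit. Of 8 complex enzymes, 4 rose, 1 fell and 3 passed no threshold, where 14.8% of all tested genes rose and 17.2% fell. The 3 were DARS, RARS and KARS, and the values of KARS stand above beside GARS. MARS, the methionine enzyme that also charges the initiator tRNA, lay at 22.5, 22.7 and 22.1 FPKM with empty vector and at 42.1, 43.9 and 43.3 FPKM with LACTB. That is a 1.92-fold ratio with clear separation (log2 fold change 0.91, SE 0.037; limma, adjusted p = 1.09e-05). IARS, for isoleucine, went from 54.2, 55.2 and 55.3 to 87.4, 80.0 and 80.1 FPKM. EPRS, for glutamate and proline, went from 38.9, 41.0 and 40.8 to 58.3, 56.5 and 56.1 FPKM. LARS, the leucine enzyme that also takes part in leucine sensing, went from 25.8, 27.0 and 28.0 to 38.0, 35.6 and 35.1 FPKM. Ratios for IARS, EPRS and LARS were 1.503, 1.41 and 1.35, with adjusted p between 0.000203 and 0.00106 (limma) and no overlap of the groups.

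The exons of MARS lie partly over those of a gene that also rose. On GRCh38 chromosome 12 (57475445 to 57517569, plus strand), 13.3% of the exon bases of MARS overlap exons of other genes, including DDIT3 on the opposite strand. DDIT3, the stress transcription factor CHOP, rose from 8.961 ± 0.791 to 19.99 ± 0.648 FPKM (SD, n = 3 each). Its counts were small beside those of MARS, at 198 to 234 reads with empty vector and 461 to 466 with LACTB, against 2783 to 2894 and 5304 to 5471 reads for MARS. Whether some reads of DDIT3 were counted for MARS was not tested.

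The other complex enzymes stayed near their empty vector level or lay slightly below it. QARS, for glutamine, lay at 30.8, 28.6 and 29.2 FPKM with empty vector and at 24.6, 26.6 and 27.1 FPKM with LACTB. Its groups were close but apart, and its fall (log2 fold change -0.17, SE 0.051; limma, adjusted p = 0.0406) passed narrowly. It was lost in 12 of 16 alternative fits, including all 6 that left out a library (limma, adjusted p 0.0299 to 0.138 over the 16). DARS, for aspartate, lay at 26.6, 27.0 and 27.8 FPKM with empty vector and at 26.5, 24.8 and 22.8 FPKM with LACTB, and did not pass (limma, adjusted p = 0.125). RARS, for arginine, lay at 51.0, 53.4 and 52.1 FPKM and at 54.9, 56.2 and 54.0 FPKM, and did not pass either (adjusted p = 0.169). The LACTB libraries lay wholly below the others for DARS and wholly above them for RARS, a separation in either direction that 25.1% and 22.3% of tested genes also showed. AIMP1 stood at 25.0 ± 1.66 and 27.4 ± 1.10 FPKM (limma, adjusted p = 0.142). The other scaffolds of the complex, AIMP2 and EEF1E1, passed no threshold, with log2 fold changes of 0.030 and -0.12.

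By class, 7 of 10 cytosolic class I genes rose and 1 fell, with a median log2 fold change of 0.53. Of 10 class II genes 5 rose and none fell, with a median of 0.16. Among all tested genes 14.8% rose and 17.2% fell. EPRS, the joined glutamate and proline enzyme, was counted in class I only, and the subunit genes FARSA and FARSB were counted separately in class II. The difference between the classes was not tested. Each of the 12 rises in the cytosolic set kept its call in all 16 alternative fits, with empty vector replicate 3 left out among them.

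The promoters of the risen genes were searched for the composite element that ATF4 binds as a dimer with C/EBP proteins. RefSeq start windows of GRCh38.p14, from 250 bases before to 50 bases after the gene start, matched 31 of the 37 genes. DARS, LARS, VARS, YARS, AARS2 and VARS2 had no matching window. The letters TGATGNAA, read on both strands, stood in 6 of 10 windows of risen cytosolic genes, in 0 of 6 of the other cytosolic genes and in 1 of 14 of the mitochondrial genes. Among all 35116 windows 3.62% held it, and among 8617 windows of tested genes 1.71% did. The 7 sites are shown because they mark which of the synthetase genes carry the element. Each line gives 30 bases in the direction of the gene, 5′ to 3′, with the matched letters in capitals.

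MARS, chr12:57488053-57488082, plus strand: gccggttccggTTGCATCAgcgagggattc
CARS, chr11:3057407-3057436, minus strand: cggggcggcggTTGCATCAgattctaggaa
IARS, chr9:92293692-92293721, minus strand: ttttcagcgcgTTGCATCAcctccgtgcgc
AARS, chr16:70289675-70289704, minus strand: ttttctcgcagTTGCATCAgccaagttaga
NARS, chr18:57621804-57621833, minus strand: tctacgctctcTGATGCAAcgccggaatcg
TARS, chr5:33440956-33440985, plus strand: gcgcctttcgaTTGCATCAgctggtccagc
YARS2, chr12:32756076-32756105, minus strand: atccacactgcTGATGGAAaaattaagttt

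The 6 cytosolic sites read the same 8 letters, TGATGCAA, in NARS along the gene and in the others on its opposite strand. The site of YARS2 differed, and that gene passed no threshold. TGATGCAA, a form picked after these sites were seen, stood in 0.545% of windows of tested genes and in 0.866% of all windows. The site of MARS and that of CARS lay across the annotated start, that of IARS ended 6 bases before it, and those of TARS and NARS began 3 and 15 bases after it. AARS had its site 180 to 187 bases before the start. No such letters were in the windows of WARS, GARS, SARS and EPRS, which also rose.

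**Figure D3:**
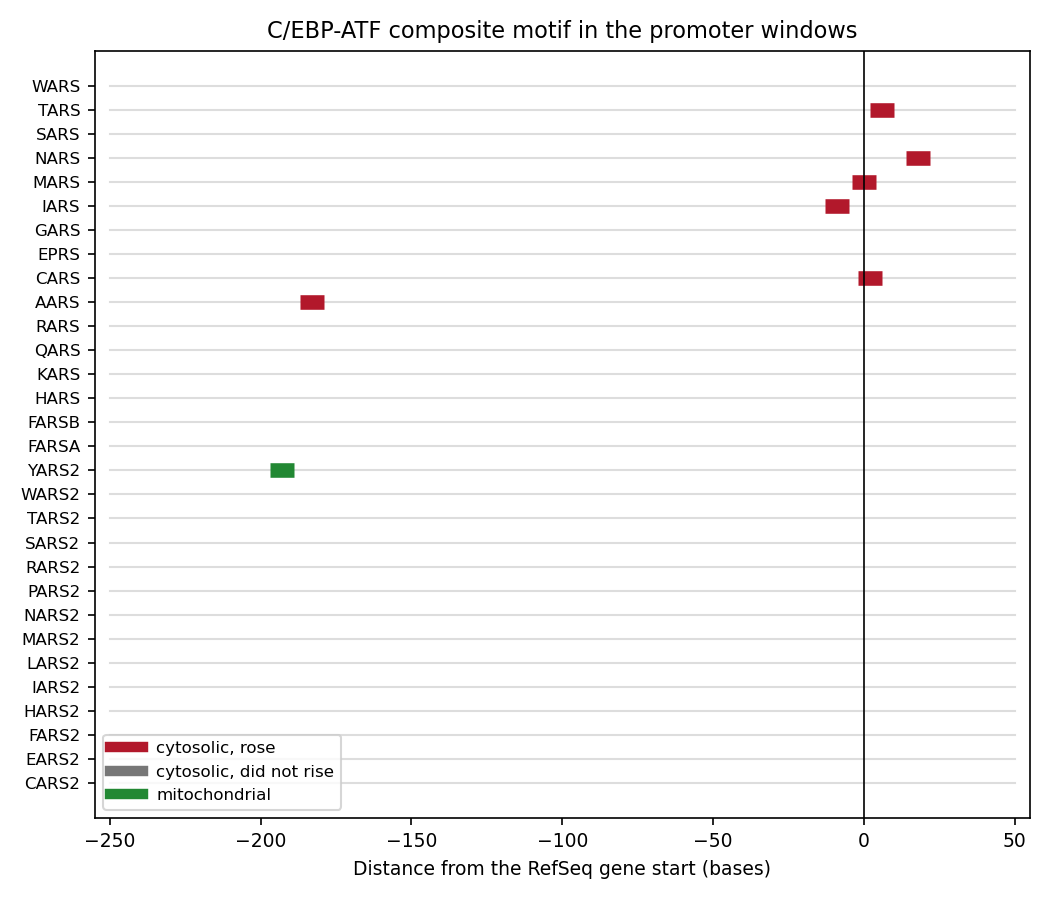
Position of the letters TGATGNAA (either strand) in the RefSeq windows of the matched synthetase genes, as distance from the gene start in bases; each grey line is a window and each block a match. Blocks stand in 6 of 10 windows of risen cytosolic genes, 5 of them near the start, and in 1 of 14 mitochondrial windows.

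Across the whole transcriptome, 42 of 147 tested genes with TGATGNAA in the window rose, 28.6%, against 15.4% of all 8617 tested genes with a window. These counts include the 6 risen cytosolic genes and YARS2 shown above, so they are not independent of them. Sites for NRF1 (GCGCA, any base, then GCGC, both strands), a regulator of many nuclear genes for mitochondria, stood in 3 of 14 mitochondrial windows, 2 of 10 windows of risen cytosolic genes and 13% of windows of tested genes. The E-box CACGTG stood in 3 of 14 mitochondrial windows, in the IARS window among the risen cytosolic genes, and in 10.4% of those of tested genes. A match is a stretch of letters only, and binding was not measured.

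Mitochondrial synthetase genes were lower in level than the cytosolic ones, and most showed no difference that passed the test. Their means over the 6 libraries ran from 0.509 FPKM for SARS2 to 31.8 FPKM for IARS2, with a median of 5.68 FPKM, against 39.95 FPKM for the cytosolic genes. Among the 8483 tested genes within the FPKM range of the 15 tested mitochondrial genes, 15.4% rose and 17.8% fell. The LACTB libraries lay wholly above the others for 4 of the 15 and wholly below them for 2. Of all tested genes, 22.3% and 25.1% were separated in these ways.

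MARS2, for methionine, was the mitochondrial gene that rose. It lay at 5.08, 6.10 and 5.42 FPKM with empty vector and at 7.56, 7.76 and 7.77 FPKM with LACTB, on 270 to 422 reads per library. The groups were apart, at a ratio of 1.39 (log2 fold change 0.41, SE 0.063; limma, adjusted p = 0.00326), and the call held in all 16 alternatives. WARS2, for tryptophan, lay at 3.62, 3.82 and 3.37 FPKM with empty vector and at 2.83, 2.86 and 2.99 FPKM with LACTB. NARS2, for asparagine, lay at 12.1, 12.3 and 13.9 FPKM and at 10.1, 10.7 and 11.4 FPKM. Both fell, by 0.24 and 0.23 on the log2 scale (limma, adjusted p = 0.0194 and 0.0372), without overlap of the groups. The calls were fragile: that of WARS2 was lost in 6 of 15 alternatives (adjusted p 0.0143 to 0.0674) and that of NARS2 in 7 of 16 (0.0263 to 0.177). In both, leaving out empty vector replicate 2 or LACTB replicate 1 or 2 ended the call, as did empty vector replicate 1 for WARS2 and empty vector replicate 3 for NARS2. A noncoding gene on the opposite strand of WARS2, AL359915.2, shares part of its exons and moved the other way. It had 142 to 163 reads with empty vector and 193 to 220 with LACTB, against 234 to 267 and 189 to 207 for WARS2. Whether the overlap affected the WARS2 counts was not tested.

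**Figure D4:**
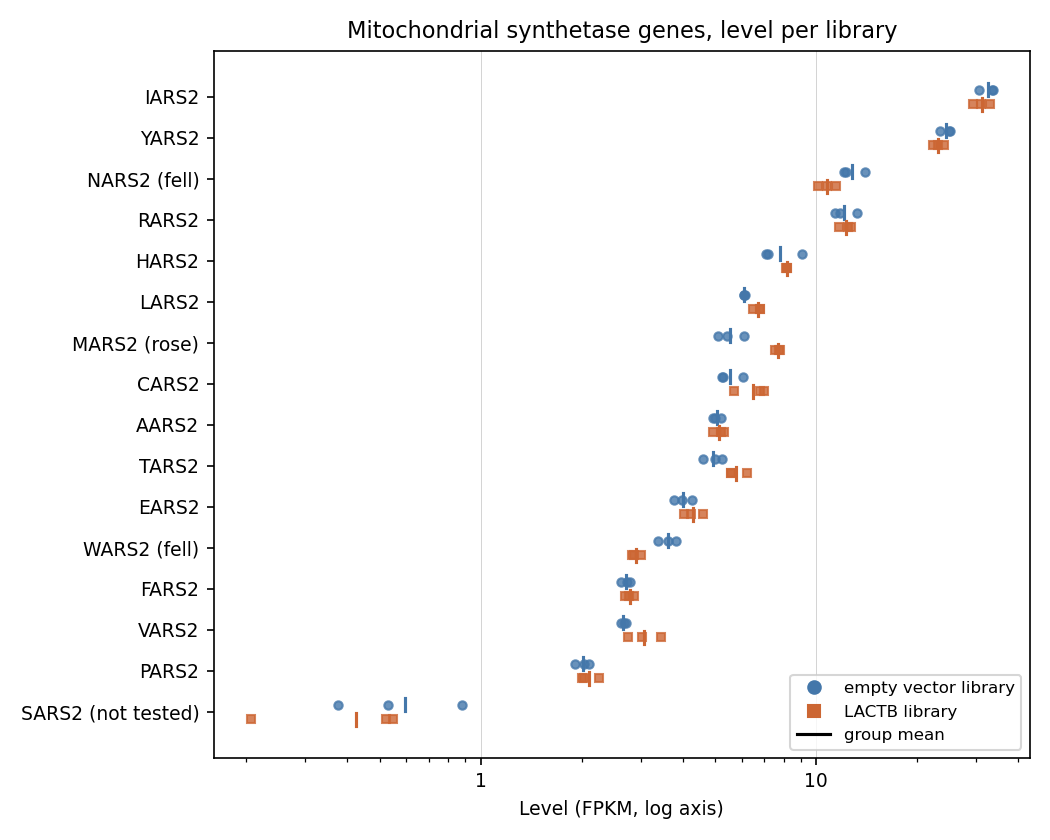
Level of each mitochondrial synthetase gene in FPKM on a log axis, ordered by the empty vector mean. Circles are empty vector libraries, squares LACTB libraries and short lines group means; the groups overlap for most genes, MARS2 lies higher with LACTB, and SARS2 lies under 1 FPKM in every library.

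The 2 mitochondrial genes nearest the threshold both lay higher with LACTB. TARS2, for threonine, lay at 5.23, 4.58 and 4.99 FPKM with empty vector and at 5.55, 6.20 and 5.55 FPKM with LACTB (limma, adjusted p = 0.0597). LARS2, for leucine, lay at 6.10, 6.13 and 6.08 FPKM and at 6.80, 6.49 and 6.78 FPKM (adjusted p = 0.0782). Their groups did not overlap, yet the differences were small, with log2 fold changes of 0.19 and 0.11. With voom on recovered reads TARS2, CARS2 and VARS2 also passed, upward, at adjusted p of 0.0261, 0.0177 and 0.0479 (limma). CARS2 passed without LACTB replicate 1 as well (limma, adjusted p = 0.0358).

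The other tested mitochondrial genes passed no threshold in the main fit. CARS2, for cysteine, went from 5.51 ± 0.457 to 6.48 ± 0.701 FPKM and VARS2, for valine, from 2.66 ± 0.0402 to 3.07 ± 0.347 FPKM (SD, n = 3 each). Their log2 fold changes were 0.198 and 0.149, that of CARS2 slightly above the 0.190 of TARS2. IARS2, for isoleucine, and YARS2, for tyrosine, the mitochondrial genes of highest level, stood at 32.5 ± 1.70 and 24.4 ± 0.836 FPKM with empty vector and at 31.1 ± 1.85 and 23.1 ± 0.901 FPKM with LACTB. EARS2, for glutamate, had a log2 fold change of 0.080 and RARS2, for arginine, one of 0.021. AARS2, FARS2 and PARS2, for alanine, phenylalanine and proline, had log2 fold changes of 0.023, 0.025 and 0.037, and their 95% intervals reached at most 0.20. HARS2, for histidine, stood at 7.78 ± 1.10 and 8.16 ± 0.0139 FPKM, and its highest value, 9.04 FPKM, was that of empty vector replicate 3. Without that library it passed upward (log2 fold change 0.17; limma, adjusted p = 0.0329). HARS2 and HARS are read in opposite directions from overlapping starts on chromosome 5, and 15.8% of HARS2 exon bases are shared with HARS or ZMAT2. SARS2, for serine, was not tested, because its mean lay under 1 FPKM on 12 to 51 reads per library. Of its exon bases, 57% overlap other genes, MRPS12 among them.

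Set side by side by amino acid, the cytosolic gene had the higher log2 fold change in 14 of 16 pairings with a tested mitochondrial gene. EPRS and FARS2 each stand in 2 of these pairings, and of the 12 pairings of like symbol 10 had the higher value in the cytosol. The count rests in part on near-equal pairs: it was 12 of 16 by ratios of mean FPKM, at a pseudocount of 0.1 and with voom, where TARS with TARS2 and FARSB with FARS2 turned. It was 12 to 14 with a library left out. The tryptophan pair differed most. WARS exceeded WARS2 5.001, 4.54 and 4.78 times in the empty vector libraries and 19.0, 19.0 and 17.9 times in the LACTB libraries. The asparagine pair came next, with NARS at 2.88 ± 0.132 times the level of NARS2 with empty vector and 4.97 ± 0.384 times with LACTB (SD, n = 3 each). Methionine was the amino acid for which both genes rose, and MARS still rose more than MARS2, at log2 fold changes of 0.91 and 0.41. For threonine the cytosolic rise (0.21) and the mitochondrial value (0.19) were almost equal, and the ratios of means, 1.163 and 1.169, stood in the opposite order. Valine and histidine were the exceptions in the limma fit at a pseudocount of 1, with log2 fold changes of -0.10 for VARS against 0.15 for VARS2 and -0.075 for HARS against 0.068 for HARS2. An exact two-sided permutation test on the log ratio of WARS to WARS2 gave p = 0.1, the smallest p that 3 libraries against 3 allow. The same test gave 0.1 for VARS and VARS2, which went the other way, so it does not set the tryptophan pair apart.

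**Figure D5:**
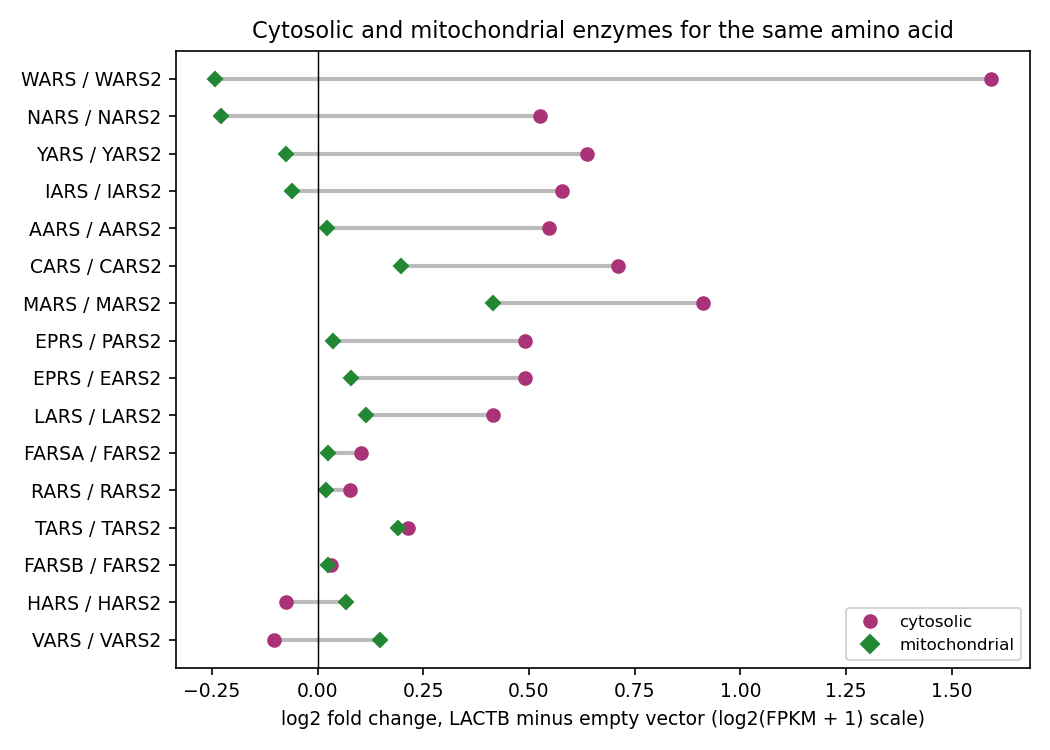
Log2 fold change (LACTB minus empty vector, log2(FPKM + 1) scale) of the cytosolic gene (circle) and the mitochondrial gene (diamond) for the same amino acid, joined by a line. At the pseudocount of 1 plotted here the circle lies to the right in 14 of 16 pairings (12 at a pseudocount of 0.1), with the widest gap for WARS and WARS2 (1.59 against -0.24), and to the left for HARS and VARS.

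The amidotransferase genes QRSL1, GATB and GATC, which complete mitochondrial glutamine tRNA, and the formyltransferase MTFMT passed no threshold (0 of 4 by limma, 1 at an unadjusted p under 0.05, QRSL1). Of 4 tested trans-editing and selenocysteine tRNA genes, SEPSECS rose, from 1.74 ± 0.188 to 2.31 ± 0.210 FPKM, a call kept in 8 of 15 alternatives. In elongation factor 1, which carries charged tRNA to the ribosome, EEF1A1 rose from 1509 ± 79.3 to 1796 ± 24.2 FPKM and EEF1B2 from 186.6 ± 12.0 to 216.3 ± 9.52 FPKM (kept in 12 and 8 of 16 alternatives). EEF1G was listed at 0 in every library, and whether this reflects the cells or the read counting was not tested. Among 4 mitochondrial elongation factors GFM2 rose 1.36-fold, and the other members passed no threshold. The counts of these lists stand beside 14.8% rising and 17.2% falling among all tested genes.

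Genes for making and modifying tRNA were called in both directions, most of them in neither. Of 22 genes of RNA polymerase III and its factors, 5 rose and 1 fell. POLR3D and POLR3G, polymerase subunits, rose 1.24-fold and 1.19-fold, and MAF1, the repressor of that polymerase, fell from 69.3 ± 3.14 to 58.5 ± 2.33 FPKM. Of 18 tested maturation and export genes, 3 rose and 1 fell. XPOT, the nuclear exporter of tRNA, rose from 42.0 ± 0.954 to 58.6 ± 1.85 FPKM and CLP1, an RNA kinase of the tRNA splicing complex, 1.54-fold, while ELAC2, which trims tRNA 3′ ends, fell from 17.2 ± 0.316 to 14.4 ± 0.499 FPKM. Of 31 modification genes, 7 rose and 3 fell. YRDC, for the threonylcarbamoyl mark, rose 1.60-fold and TRMT6, of the m1A methyltransferase, 1.29-fold. TRDMT1, a cytosine methyltransferase, fell from 3.28 ± 0.0764 to 2.31 ± 0.134 FPKM and WDR4, of the m7G methyltransferase, from 18.95 ± 1.00 to 15.6 ± 0.712 FPKM. The median log2 fold changes of these 3 lists were -0.015, 0.045 and 0.062. Among all tested genes 14.8% rose and 17.2% fell, and no list was tested against those shares.

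In a list that joins uncharged tRNA sensing with ATF4 and stress genes, 9 of 12 tested genes rose and none fell. Among all tested genes 14.8% rose, and the median log2 fold change of the list was 0.86. The 9 were ATF4 and the stress genes listed with it, and whether uncharged tRNA led to their rise was not tested. The genes of the sensor itself, EIF2AK4 (GCN2) and its partner GCN1, passed no threshold, with log2 fold changes of -0.020 and 0.047. EIF2S1, which encodes the phosphorylated subunit of eIF2, did not pass either, at -0.037. ATF4 rose 1.65-fold, SESN2, a stress sensor, 4.23-fold and PPP1R15A, which directs dephosphorylation of eIF2, 1.99-fold. These are RNA levels; charging of tRNA and phosphorylation of eIF2 were not measured.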

How the data were processed

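RNA-seq was done on 3 libraries of MUM2B cells with empty vector and 3 with LACTB. GRCh38, DESeq2 1.16.1, HISAT2 2.0.5 and featureCounts 1.5.0-p3 are listed without roles, per the submitters' processing notes. Strand use and annotation release: not given in the sources used here. The authors deposited FPKM values per gene, already divided by library size and exon length. All 58735 gene IDs matched GENCODE 29, whose exon lengths gave whole reads for 100% of values above 0 (tolerance 0.1 reads).

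Log2(FPKM + 1) of all 11875 genes whose mean reached 1 FPKM was fitted with limma 3.58.1 (R 4.3.3, eBayes with trend, Benjamini-Hochberg over all tested genes). This pseudocount understates changes of low genes. Ratios are of mean FPKM. The fit was checked on simulated data. Libraries of a group differed by more than sampling noise (chi-square per degree of freedom 2.02 to 12.4), so none was treated as a copy of another, which does not show that they are separate cultures.

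The members and lists were chosen with earlier results of these data known. Values per library are given for called members and for the 2 nearest the threshold in each compartment, and for KARS, chosen after its values were seen. Up to 2 risen and 2 fallen genes with the smallest p are named per related list, and ATF4 besides. The sensor genes EIF2AK4 and GCN1 and the eIF2 gene EIF2S1, all without a call, were named after their values were seen, as were QRSL1 and the other amidation genes. Promoter sites were to be shown for up to 3 genes per compartment that hold the motif, by largest absolute log2 fold change (MARS, CARS, IARS and YARS2), and AARS, NARS and TARS complete the set. Alternatives were another pseudocount, filters, scalings, variance models, a replicate block, voom, a threshold of 0.01 and leaving out each library.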

Additional observations from a re-analysis of the deposited data

How the results depend on the processing

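Over the 16 alternative fits the number of cytosolic genes that rose was 12, except 13 without LACTB replicate 1, when FARSA joined. It was also 12 at an adjusted p under 0.01. All tested genes that rose and fell numbered 1758 and 2038, and 1155 rose at a mean of at least 5 FPKM. As TPM, 1615 rose and 1295 fell. The stricter threshold of 0.01 left 847 rising and 1004 falling genes. Leaving out a library gave 1115 to 1505 rising and 1388 to 1800 falling genes. The single cytosolic fall became 0 without a filter, as TPM, after quantile normalization, without the variance trend, with the replicate block, with voom and at an adjusted p under 0.01, and was 0 to 1 with a library left out. QARS, the gene that fell, lost its call in all 6 of those fits, and the gene called in its place was VARS without empty vector replicate 3 and DARS without LACTB replicate 1. Mitochondrial rises numbered 2 at a mean of at least 5 FPKM, 4 with voom, and 1 to 2 with a library left out. Mitochondrial falls numbered 1 at a mean of at least 5 FPKM, as TPM and after quantile normalization, 0 without a filter and at an adjusted p under 0.01, and 0 to 2 with a library left out. Of the related genes, 5 fell, 3 as TPM, 2 at an adjusted p under 0.01, and 4 to 7 with a library left out, while 21 to 25 rose then. The median of the cytosolic genes was 0.46 at a pseudocount of 0.1, 0.49 as TPM or after quantile normalization (0.4856 and 0.4947), 0.499 with voom and 0.43 to 0.47 with a library left out. That of the mitochondrial genes was 0.062 as TPM, 0.090 with voom and 0.013 to 0.077 with a library left out. Causes were not tested.

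The labels number replicates 1 to 3 in both groups, but same-numbered libraries did not deviate together (r across genes -0.126, 0.0194 and -0.0438). The main fit therefore left them unpaired. Deviations within groups of 3 cannot exclude a shared batch. With the replicate block, 1155 genes rose and 1324 fell in all. In that fit 12 cytosolic genes rose and 0 fell, 1 mitochondrial gene rose and 1 fell, and 3 related genes fell.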
